A study of Homo sapiens with 48 samples.

Results

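The sites described here are the regions of the vehicle RELA peak list that were called in every RELA and RELB list of the series. The vehicle RELA list held 2971 regions on chromosomes 1 to 22 and X, and 1129 of them (38.0%) overlapped, by at least 1 bp, a region in each of the other 9 RELA and RELB lists. These 1129 regions are called members, and the remaining 1842 are called the other vehicle RELA regions. The members were chosen by the RELA and RELB calls themselves, so the values of those lists at the members are given as a description without a test. Regions of a list are not biological replicates, and every interval and test covers the counting of regions only.

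The lists came from ChIP-seq of L3.6pl, an established human pancreatic ductal adenocarcinoma cell line, in 48 samples that formed 16 conditions of 3 replicates. RELA, RELB and the histone mark H3K27ac were each profiled after vehicle (PBS), after TNFα for 30 min and 6 h, and after TWEAK for 30 min and 6 h, and the AP-1 factor FOSL1 was profiled in vehicle. The authors pooled the replicates of a condition before calling peaks, so each condition is 1 list and no value has a replicate error. For RELA after TNFα for 30 min the peak names mention replicate 1, which leaves unclear whether all 3 entered that list. All lists were called against input chromatin of the cells, and the fold enrichment of a region is the deposited ratio of ChIP over that input. RELA was precipitated with protein G beads and the other targets with protein A beads. The read depth of each sample is unknown.

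RELA and RELB are subunits of NF-κB. RELA pairs with p50 and enters the nucleus within minutes of TNFα, the canonical pathway, whereas RELB pairs with p52 after slow processing of p100, the noncanonical pathway that TWEAK can drive. Both bind a G-rich and C-rich consensus in promoters and enhancers, which carry H3K27ac when active and often hold AP-1 sites bound by FOSL1. Centromeres and their flanks are built of other DNA: alpha satellite, a tandem repeat of a unit near the length of a nucleosome that often carries the CENP-B box, human satellites rich in the word CATTC, and beta and gamma satellites, while chromosome ends carry TTAGGG repeats. Such repeats exist in many near-identical copies, and a short read from one copy can match others.

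The members were dominated by tandem repeats, and the following sequences show what the strongest members of the main repeat types look like. All are hg38, plus strand, 5′ to 3′. The first pair gives the alpha satellite members with the highest vehicle RELA fold enrichment, with the CENP-B box (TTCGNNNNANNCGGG) in capitals.
Alpha satellite member, chr17:26299316-26299587: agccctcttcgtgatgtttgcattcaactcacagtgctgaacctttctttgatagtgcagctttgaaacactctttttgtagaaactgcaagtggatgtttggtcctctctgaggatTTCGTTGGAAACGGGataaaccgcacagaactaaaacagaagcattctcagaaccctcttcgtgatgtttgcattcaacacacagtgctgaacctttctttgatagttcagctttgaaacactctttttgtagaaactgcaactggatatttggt
Second alpha satellite member, chr17:25569094-25569384: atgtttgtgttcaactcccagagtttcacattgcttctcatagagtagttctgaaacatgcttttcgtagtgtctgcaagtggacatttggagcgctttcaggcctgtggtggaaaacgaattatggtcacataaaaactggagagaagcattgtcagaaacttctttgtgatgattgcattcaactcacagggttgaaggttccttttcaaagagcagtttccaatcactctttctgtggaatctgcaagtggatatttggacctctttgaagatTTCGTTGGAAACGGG
The next pair gives the strongest members of the CATTC type, with CATTC in capitals.
CATTC member, chr7:62454692-62454854: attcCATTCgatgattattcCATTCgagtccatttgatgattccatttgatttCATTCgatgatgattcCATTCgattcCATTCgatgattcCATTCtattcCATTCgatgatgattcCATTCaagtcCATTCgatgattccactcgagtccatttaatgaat
Second CATTC member, chr1:125167774-125168017: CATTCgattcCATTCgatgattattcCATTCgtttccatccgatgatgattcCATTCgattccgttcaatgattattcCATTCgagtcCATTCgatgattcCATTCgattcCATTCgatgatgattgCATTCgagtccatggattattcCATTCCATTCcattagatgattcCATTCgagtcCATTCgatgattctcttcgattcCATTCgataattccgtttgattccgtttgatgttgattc
Short units of other lengths are represented by the first 210 bases of a member on chromosome 3, with a recurring word in capitals. Its repeat was loose: the best match of the sequence with itself was at a shift of 42 bp, where 0.494 of the bases matched.
Member with a 42-bp period, chr3:93470365-93470574: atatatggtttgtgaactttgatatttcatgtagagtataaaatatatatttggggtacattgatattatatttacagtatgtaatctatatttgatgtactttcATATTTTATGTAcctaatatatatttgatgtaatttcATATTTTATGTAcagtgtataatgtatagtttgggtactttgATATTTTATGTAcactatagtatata
The member with the highest vehicle RELA fold enrichment of all 1129 lay on chromosome 13, and capitals mark its bases that belong to 25-base words of the mitochondrial genome.
Mitochondrial match member, chr13:109424130-109424340: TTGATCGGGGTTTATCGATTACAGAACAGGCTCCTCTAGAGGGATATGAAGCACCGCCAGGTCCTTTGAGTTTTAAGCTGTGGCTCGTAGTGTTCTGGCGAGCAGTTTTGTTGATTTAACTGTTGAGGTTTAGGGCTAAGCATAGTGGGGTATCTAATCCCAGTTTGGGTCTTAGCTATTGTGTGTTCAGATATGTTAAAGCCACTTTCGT
The next pair, on chromosome 11, had the highest vehicle RELA fold enrichment of the members outside the repeats defined below. Each holds an alternating run of GA or CT, given in capitals.
GA run member, chr11:119743980-119744156: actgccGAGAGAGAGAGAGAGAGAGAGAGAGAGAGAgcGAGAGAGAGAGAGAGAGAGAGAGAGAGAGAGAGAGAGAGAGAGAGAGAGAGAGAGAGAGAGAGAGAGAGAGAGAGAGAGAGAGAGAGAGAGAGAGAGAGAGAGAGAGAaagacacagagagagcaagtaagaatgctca
CT run member, chr11:107590301-107590469: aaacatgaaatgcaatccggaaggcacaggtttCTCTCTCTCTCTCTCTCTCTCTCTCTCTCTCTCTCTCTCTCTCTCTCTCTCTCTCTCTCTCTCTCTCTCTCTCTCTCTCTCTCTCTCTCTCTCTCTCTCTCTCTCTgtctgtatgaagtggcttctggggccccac
The only member outside tandem repeats that held the NF-κB consensus is shown with the match in capitals.
NF-κB consensus member, chr7:77008083-77008322: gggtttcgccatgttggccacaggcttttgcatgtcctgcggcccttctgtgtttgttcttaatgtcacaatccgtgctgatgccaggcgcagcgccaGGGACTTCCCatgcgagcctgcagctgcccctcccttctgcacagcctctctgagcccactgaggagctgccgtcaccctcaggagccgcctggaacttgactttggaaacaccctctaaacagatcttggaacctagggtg

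Nearly all members lay in tandem repeats. The 1000 bp around each summit were compared with themselves at shifts of 1 to 400 bp, and a region was placed in tandem repeats when the best shift matched at 0.4 of the bases or more. That held for 1093 of 1129 members (96.8%, exact 95% interval 95.6 to 97.8) and for 1443 of 1842 other vehicle RELA regions (78.3%, 76.4 to 80.2), against 85.4% of all vehicle RELA regions and 4.25% of windows placed every 10 kb along the genome. The odds ratio of members against the other regions was 8.40, with an adjusted p of 6.12e-51. Here and below, odds ratios were tested with Fisher's two-sided exact test and gained against lost calls with the two-sided exact McNemar test, with p-values adjusted by Benjamini-Hochberg over 13 tests. On all 21 chromosomes with at least 5 regions of each group the share was higher among members.

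Alpha satellite was the main type. The best shift lay at the alpha satellite unit or at its next multiple in 873 members (77.3%, exact 95% interval 74.8 to 79.7) and in 1268 other regions (68.8%, 66.7 to 70.9), and in 2.45% of genome windows. The most frequent shift among these members was 340 bp, in 297 members, followed by 171 bp, in 225 members. The CENP-B box was found in 96.7% of alpha satellite members, 1205 of the 1268 other alpha satellite regions, 78.2% of alpha satellite windows of the genome and 1.96% of all windows. Of the 873 members, 1 also matched itself above the limit at a shift of 160 bp or less.

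The remaining types were smaller, and some were concentrated in the members. The CATTC type held 157 members (13.9%, exact 95% interval 11.9 to 16.1) and 64 other regions (3.47%, 2.69 to 4.42). Among these members CATTC occurred 31 to 127 times per 1000 bp, with a median of 47, against a median of 2 in members and other regions outside tandem repeats. The telomere type held 11 members and 2 other regions. The beta satellite period was found in 7 members and 7 other regions, and the gamma satellite period in 0 members, which allows a share of up to 0.326%. Other tandem repeats held 45 members (3.99%) and 102 other regions (5.54%), with periods of 42 bp in 6 members on chromosomes 3, 4 and 13 and of 147 bp in 5 members on chromosomes 21 and 22. In 10 members and 3 other regions most of the sequence at the summit matched the mitochondrial genome. Outside all of these lay 26 members (2.30%, 1.51 to 3.36) and 396 other regions (21.5%, 19.6 to 23.4).

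The share in tandem repeats did not rise steadily with the number of lists. It was 81.4% of the 183 regions called in no other list, 58.8% of the 233 called in 5 other lists, 92.1% of the 290 called in 8 and 96.8% of the members called in all 9. The plot of repeat type by number of lists shows the same course. Regions outside tandem repeats were thus most frequent in the middle of the range.

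**Figure D1:**
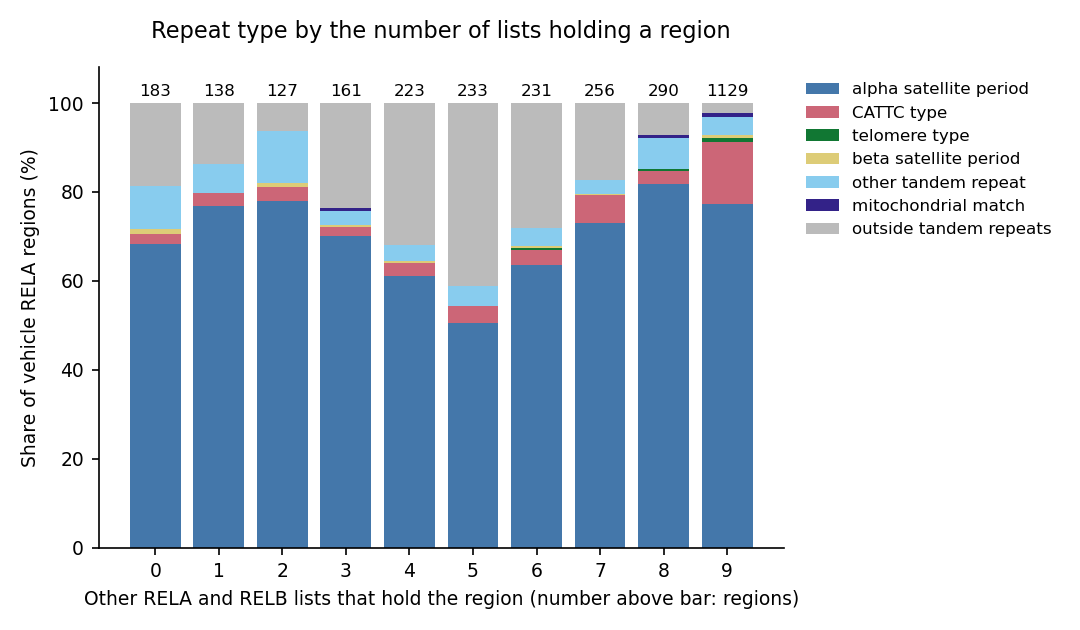
Share of the vehicle RELA regions in each repeat type (y axis, percent) by the number of other RELA and RELB lists that hold the region (x axis), with the number of regions above each bar. Regions outside tandem repeats take the largest share at 5 lists and are 2.30% of the 1129 members at 9 lists.

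The NF-κB consensus followed the opposite course. It was searched on both strands in the 200 bp around each summit and occurred in 3 members (0.266%) and in 245 other regions (13.3%), against 1.61% of genome windows. By number of other lists it was in 0 of 183 regions called in none, 72 of 233 (30.9%) called in 5, 10 of 290 (3.45%) called in 8 and 3 of 1129 called in all 9. None of the 873 alpha satellite members and none of the 157 CATTC members held it, nor did any of the 1268 and 64 other regions of those types. Among genome windows of those types it occurred in 0.196% and 0%. The AP-1 site TGANTCA was found in 13 members (1.15%), 134 other regions (7.27%), 6.19% of genome windows and 44.4% of FOSL1 regions. Of the 10 regions with the NF-κB consensus that missed a place among the members by 1 list, 7 were absent from the RELB list after TWEAK for 30 min.

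Members were not at the edge of the overlap rule. The smallest overlap of a member with any of the 9 lists was 17 bp, the median of that smallest overlap was 143 bp, and 0 members had under 10 bp. Just outside the rule, the 290 regions missing from 1 list had a median vehicle RELA fold enrichment of 5.76 and a median length of 136 bp, against 7.12 and 183 bp for the members. Of these 290, 84 were missing from RELA after TWEAK for 30 min, 66 from RELB after TWEAK for 30 min, 48 from RELB after TWEAK for 6 h and 4 from RELB in vehicle. Of all vehicle RELA regions, 73.3%, 80.3%, 62.6% and 73.6% were found in RELA after TNFα for 30 min and 6 h and after TWEAK for 30 min and 6 h. In RELB the shares were 74.8% in vehicle, 63.7% and 71.3% after TNFα, and 58.3% and 67.9% after TWEAK.

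Most members lay in or near centromeric arrays. In each chromosome the longest run of alpha satellite windows was taken as the centromeric array, and the 23 arrays spanned 1.28 to 5.56 Mb each and 2.16% of the chromosomes. Inside the arrays lay 868 members (76.9%), and every one of the 23 chromosomes had at least 1. Within 5 Mb of an array, or inside it, were 972 of 1129 members (86.1%, exact 95% interval 83.9 to 88.1) and 1365 of 1842 other regions (74.1%, 72.0 to 76.1), against 78.7% of all vehicle RELA regions. The odds ratio was 2.16 (exact test, adjusted p = 1.02e-14), and the share was higher among members on 19 of 21 chromosomes and lower on 2. With regions of a fold enrichment of at least 5 in all lists it was 4.68, and with chromosome 1 left out, an alternative chosen after the data were seen, it was 3.75. The arrays are defined by alpha satellite, and within that type the shares were 99.7% of members and 99.5% of other regions. In the CATTC type the order was the opposite, with 79 of 157 members (50.3%) and 52 of 64 other regions (81.2%), a difference that was not tested. Distances were taken in hg38 coordinates, which include unassembled gaps. Within 10 kb of a gap of at least 50 bp lay 57 CATTC members (36.3%) and 23 other CATTC regions (35.9%). The part of gaps in these distances was not tested.

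The chromosomes contributed unequally. Chromosome 1 held 192 members, chromosome 5 held 128, chromosome 19 held 102, chromosome 17 held 90 and chromosome 10 held 86, whereas chromosome 15 held 3 and chromosome 8 held 4. The array of chromosome 10 carried 33.7 members per Mb, that of chromosome 1 carried 29.9 and that of chromosome 19 carried 28.1, against 0.385 for chromosome 8 and 0.495 for chromosome 16. Chromosome 16 differed in its types, since 27 of its 33 members were of the CATTC type and 1 was alpha satellite. Chromosome 1 had 79 CATTC members beside 103 alpha satellite members. Neighbouring members of a chromosome were a median of 21129 bp apart, and the 20 fullest windows of 1 Mb held 606 members (53.7%). The spacing of the other vehicle RELA regions was not measured. The plot by chromosome shows the counts of members.

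**Figure D2:**
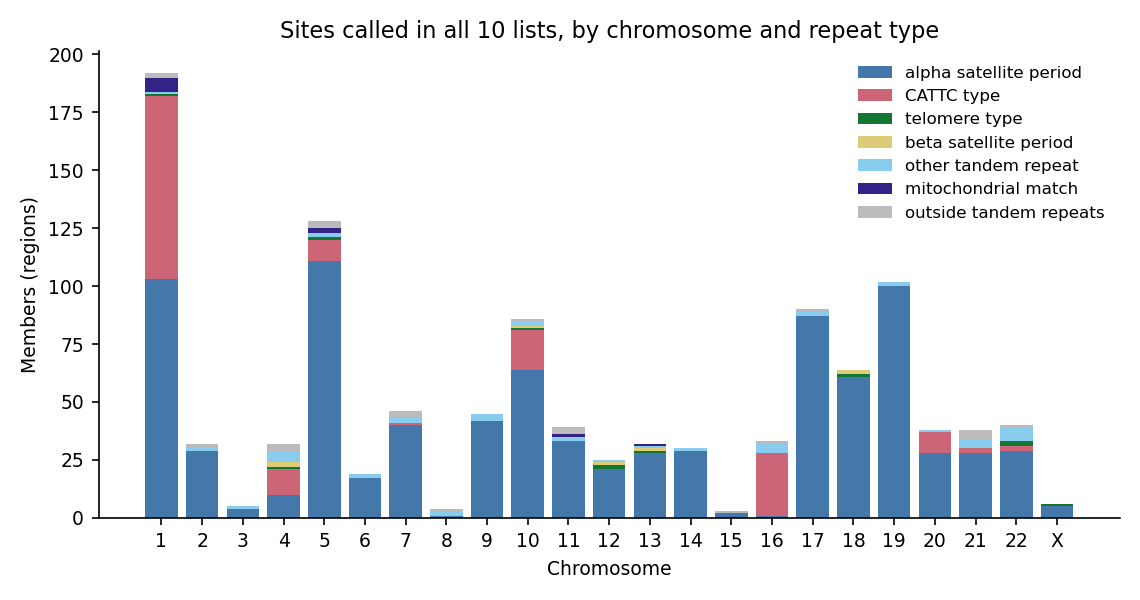
Number of members (y axis, regions) on each chromosome (x axis), coloured by repeat type. Chromosomes 1, 5 and 19 hold the most, and the CATTC type stands out on chromosomes 1 and 16.

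Few members lay near chromosome ends, but the telomere type lay there. Within 1 Mb of an end were 33 members (2.92%, exact 95% interval 2.02 to 4.08) and 38 other regions (2.06%, 1.46 to 2.82), against 2.39% of all vehicle RELA regions, a difference that was not detectable (odds ratio 1.43, p = 0.139, adjusted p = 0.201, exact test). All 11 telomere members were among the 33, and 9 of them lay within 11494 bp of the chromosome end, whose outermost bases are unassembled in hg38, on 7 chromosomes. The other 2 were on chromosome 18, 110227 bp from the end, and on chromosome 4, 91561 bp from it. The chromosome 18 member carried 62 TTAGGG per 1000 bp, and its fold enrichment ran from 25.8 to 31.6 over the 10 lists. In the same lists the member at the end of chromosome X, with 106 TTAGGG per 1000 bp, ran from 22.8 to 29.0.

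Most regions of both groups had no unique 50-base word, the length of the sequenced reads. The share without one was 74.9% of members and 70.8% of the other vehicle RELA regions. The reads were paired-end, and the words of a pair were not counted together. Among alpha satellite members 85.3% had no word that occurs once in the genome, against 92.2% of the other alpha satellite regions. For CATTC members the share without a unique word was 43.3%, against 34.4% of the other CATTC regions, and for telomere members the median word occurred 666 times. Outside tandem repeats the contrast was large: a median of 0.192% of words was unique in the 26 members, against 100% in the 396 other regions, and 7 members had a median of 1000 copies or more. How reads with several matches were placed is not given in the sources used here, and its part in the calls was not tested.

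The members had much the same fold enrichment in all 10 lists. Their median was 7.12 in vehicle RELA, 6.81 after TNFα for 30 min, 7.23 after TNFα for 6 h, 7.02 after TWEAK for 30 min and 7.71 after TWEAK for 6 h. In the RELB lists the medians in the same order were 7.17, 7.11, 7.41, 7.03 and 6.99. The lists themselves differed far more in size, from 2383 regions for RELB after TWEAK for 30 min to 11249 for RELA after TNFα for 30 min. Regions that overlapped members made up 47.0% of the smallest list and 9.94% of the largest.

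Within a member, the highest of the 10 values exceeded the lowest by a median of 1.45 times, with quartiles of 1.33 and 1.60. The ratio was 2 or more in 27 of 1129 members (2.39%). Medians by type were 1.47 for alpha satellite, 1.20 for CATTC, 1.27 for the telomere type, 1.24 for mitochondrial matches and 1.61 outside tandem repeats. The types also differed in level. Telomere members had a median vehicle RELA fold enrichment of 16.3, alpha satellite members 7.35, other tandem repeats 7.09, mitochondrial matches 4.77 and CATTC members 3.02. The CATTC members were long, with a median of 241 bp against 183 bp for all members. The plot of fold enrichment over the lists shows the flat course of the repeat types beside some members that varied more.

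**Figure D3:**
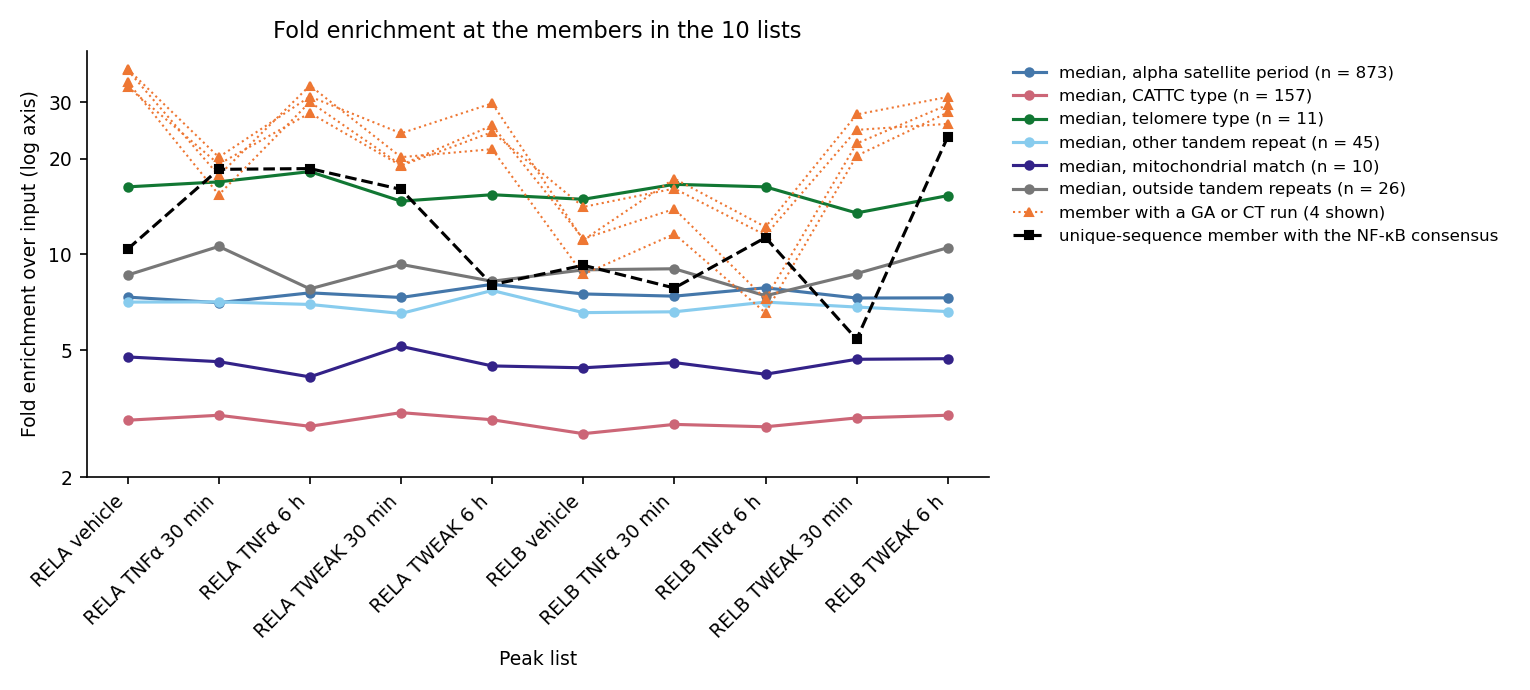
Fold enrichment over input (y axis, log axis) in the 10 RELA and RELB lists (x axis), as the median of each repeat type, as the 4 members with a GA or CT run and as the member with the NF-κB consensus in unique sequence. The type medians stay level, whereas the 4 members with a run fall to 6.56 to 12.2 in RELB after TNFα for 6 h.

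The 4 members with a GA or CT run were among the strongest, and each varied over the 10 lists by more than 2 times. A run of at least 40 alternating bases in the 200 bp around the summit was found in 4 members (0.354%), in 55 other vehicle RELA regions (2.99%) and in 22 of 291127 genome windows (0.00756%). This search was chosen after the sequences were seen. Such a run is itself a short tandem repeat, but the score over 1000 bp does not always count it. Of the 26 members placed outside tandem repeats, 23 had no run. The member at chr11:119743980-119744156, the GA run printed above, had fold enrichments of 37.9 in vehicle RELA, 17.7 and 33.9 after TNFα for 30 min and 6 h, and 20.2 and 21.4 after TWEAK for 30 min and 6 h. Its RELB values were 8.66 in vehicle, 11.6 and 6.56 after TNFα, and 20.4 and 27.9 after TWEAK. The CT run member at chr11:107590301-107590469 had 34.8, 15.4, 30.1, 19.1 and 25.4 in the RELA lists in that order and 11.2, 13.9, 7.25, 22.3 and 29.5 in the RELB lists.

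All 4 were highest in vehicle RELA, and 3 were lowest in RELB after TNFα for 6 h. The lowest list of the remaining member, in an intron of TRERF1 on chromosome 6, was RELB in vehicle, with 11.1 against 38.2 in vehicle RELA. The ratio of highest to lowest was 2.92 to 5.79 over the 4. Each overlapped a FOSL1 region, at fold enrichments of 15.6 to 22.3, and 3 of the 4 had no H3K27ac region within 500 bp in any of the 5 lists. The fourth, on chromosome 6, had one in 3 lists. The runs were noticed in sequences picked by vehicle RELA fold enrichment, so the high values in that list are tied to the choice. The course over the lists was not measured at the 55 other vehicle RELA regions with a run.

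Mitochondrial matches gave the strongest member. At chr13:109424130-109424340, in an exon of the lncRNA ENSG00000289901, all 25-base words around the summit occurred in the mitochondrial genome. Its fold enrichment was 40.2 in vehicle RELA, 34.5 to 42.0 over the RELA lists and 39.4 to 41.4 over the RELB lists, and the FOSL1 value was 32.4. Chromosome 1 held 6 of the 10 members of this type.

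Outside tandem repeats, some members consisted of words with many copies in the genome. Of these 26 members, 7 had words with a median of 1000 copies or more, including the member with a run on chromosome 2, and 3 had a median of 1 copy. The member in an intron of PHKB, chr16:47629385-47629642, had a median of 5387 copies and a fold enrichment of 10.3 to 14.6 over the 10 lists. An intronic member in LINGO1, chr15:77618533-77618712, had a median of 2544 copies and ran from 6.48 to 11.3. These 7 also included 6 of the 12 members without a FOSL1 call.

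The member at chr7:77008083-77008322 stood apart among the 3 members with the NF-κB consensus, since 92.7% of its words were unique. Those on chromosome 22 had 0% and 11.5%. Unique sequence alone was not particular to it, since 3 members without the consensus had only unique words. The chromosome 7 member lies in an intron of the lncRNA DTX2P1-UPK3BP1-PMS2P11. Its fold enrichments in the RELA lists were 10.4 in vehicle, 18.5 and 18.6 after TNFα for 30 min and 6 h, and 16.0 and 8.04 after TWEAK for 30 min and 6 h. In the RELB lists they were 9.25 in vehicle, 7.85 and 11.3 after TNFα, and 5.42 and 23.4 after TWEAK. The highest value was 4.31 times the lowest, and FOSL1 reached 3.80.

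No member lay beside a gene of the NF-κB pathway list. The list holds 36 genes of subunits, inhibitors, receptors, adaptors and targets, of which 19 had a vehicle RELA region within 10 kb of the gene and 0 had a member. The share of all genes with a member within 10 kb was not counted, so the 0 cannot be set against other genes. The nearest to the rule were regions at TNIP1 and BIRC3, chosen here after their values were seen. TNIP1 encodes a partner of the NF-κB inhibitor A20, and its region chr5:151080984-151081169, with a vehicle RELA fold enrichment of 11.2, was in 8 other lists. BIRC3 encodes an inhibitor of apoptosis, and its region chr11:102317158-102317545, at 10.6, was also in 8. Both were missing from RELB after TWEAK for 30 min.

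Regions at NFKBIA and TNFAIP3, which encode the inhibitors IκBα and A20, had vehicle RELA values of 14.9 and 13.9 and were in 7 other lists. Both were absent from RELB after TNFα and TWEAK for 30 min, as were the regions at NFKB2 (11.3) and CYLD (9.26). The regions at NFKB1, RELB and REL were in 5 other lists and were absent from 4 of the 5 RELB lists. Near protein-coding genes in general the members were few: 14 (1.24%) had a summit within 10 kb of a coding transcription start site, against 164 of the other regions (8.90%).

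Almost every member was also a FOSL1 region. FOSL1 was not part of the rule, but its list was also called against input of the cells. What the lists share through that input was not tested, so their calls cannot be taken as independent. Of the 1129 members, 1117 (98.9%, exact 95% interval 98.2 to 99.4) overlapped 1 of the 58828 FOSL1 regions. The call was found at 1422 of 1842 other regions (77.2%, 75.2 to 79.1) and at 85.5% of all vehicle RELA regions. The odds ratio was 27.5 (exact test, adjusted p = 3.45e-77), and the share was higher among members on all 21 chromosomes compared. The FOSL1 summit lay a median of 18 bp from the RELA summit, and within 50 bp in 949 members (84.1%). FOSL1 fold enrichment at the members had a median of 6.50, and at the other regions with a call 4.74.

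By type, 872 of 873 alpha satellite members (99.9%) and 156 of 157 CATTC members (99.4%) carried a FOSL1 call, against 1033 of 1268 (81.5%) and 41 of 64 (64.1%) of the other regions of those types. Outside tandem repeats, mitochondrial matches included, the shares were 29 of 36 (80.6%) and 288 of 399 (72.2%), and the odds ratio of 1.60 had p = 0.332 by the exact test, a difference not detectable with 36 members. Members and other regions also differed in strength and length, with medians of 7.12 and 5.39 for vehicle RELA fold enrichment and of 183 and 125 bp. The odds ratio pooled over 5 equal groups by fold enrichment was 31.9, and with the FOSL1 region required to cover the RELA summit it was 26.2. Members made up a small part of the FOSL1 list, since 1086 of its regions (1.85%) overlapped one.

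H3K27ac was called at most members as well. Its lists were also called against input of the cells, and the part of that shared background was not tested. In vehicle, 909 of 1129 members (80.5%, exact 95% interval 78.1 to 82.8) had an H3K27ac region within 500 bp of the summit, against 779 of 1842 other regions (42.3%, 40.0 to 44.6) and 56.8% of all vehicle RELA regions. The odds ratio was 5.64 (exact test, adjusted p = 2.33e-96). In the treated lists the shares were 86.8% and 86.3% of members after TNFα for 30 min and 6 h, against 65.9% and 61.2% of all vehicle RELA regions, and 86.7% and 81.9% after TWEAK, against 66.1% and 57.1%. In all 5 H3K27ac lists it was called at 785 members (69.5%) and 504 other regions (27.4%), and in no list at 63 members (5.58%) and 572 other regions (31.1%). The H3K27ac regions at members were short and strong for their list. In vehicle their median length was 377 bp against 794 bp for regions elsewhere, and their median fold enrichment was 3.66 against 3.04.

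The share was higher among members in alpha satellite, the CATTC type and the other tandem repeats, and no difference could be shown for the few regions of the telomere and beta satellite types. For alpha satellite, 706 of 873 members (80.9%) and 423 of 1268 other regions (33.4%) had the call, and for the CATTC type 131 of 157 (83.4%) and 30 of 64 (46.9%). Among other tandem repeats, 32 of 45 members (71.1%) and 32 of 102 other regions (31.4%) had it. In the telomere type all 11 members and both other regions had it in vehicle, and for the beta satellite period 5 of 7 members and 4 of 7 other regions did. The telomere members had it in all 5 lists, with a median fold enrichment of 8.48 in vehicle. Outside tandem repeats, mitochondrial matches included, 24 of 36 members (66.7%) and 288 of 399 other regions (72.2%) had it. The odds ratio lay on the other side of 1 at 0.771, with p = 0.562 by the exact test. The plot of both marks by repeat type shows the shares with their intervals. It sets the mitochondrial matches apart, which leaves 16 of 26 members (61.5%) and 286 of 396 other regions (72.2%) outside tandem repeats with H3K27ac.

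**Figure D4:**
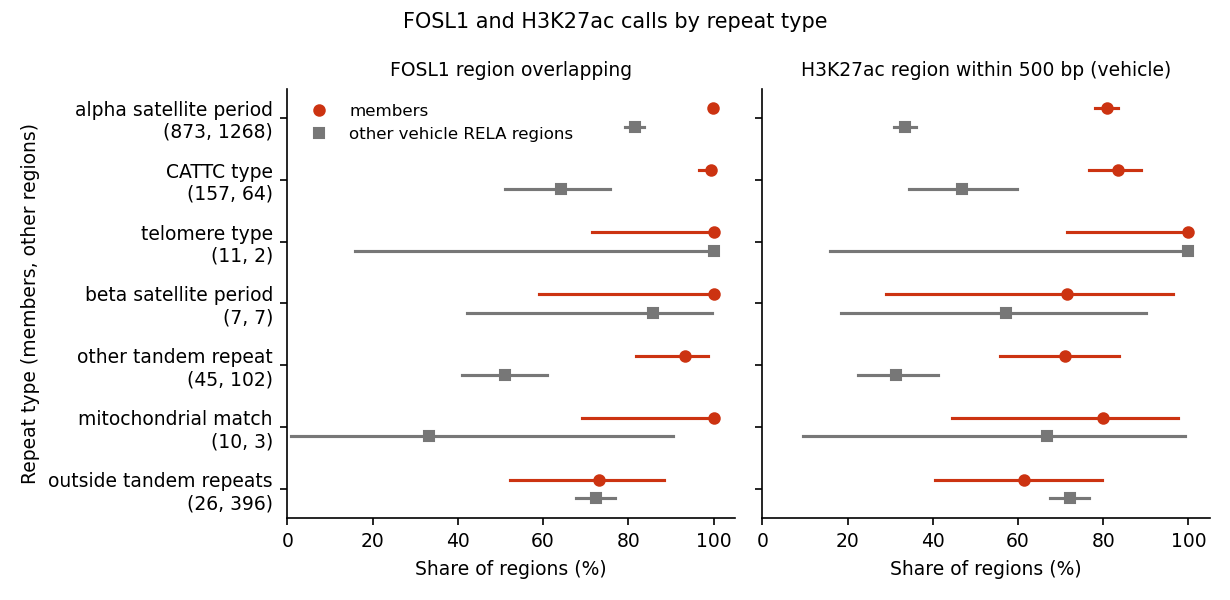
Share of regions (x axis, percent) with an overlapping FOSL1 region (left) and with a vehicle H3K27ac region within 500 bp (right), by repeat type (y axis, with the numbers of members and other regions). Points are shares and lines exact 95% intervals. Members exceed the other regions in alpha satellite, CATTC and other tandem repeats, and the intervals overlap outside tandem repeats.

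After treatment, H3K27ac calls at members were gained more often than lost in 3 of the 4 treated lists. At 30 min of TNFα 111 members gained a call (9.83%, against 13.6% of all vehicle RELA regions) and 40 lost it (3.54%, against 4.51%), a ratio of 2.77 (adjusted p = 1.68e-08, exact McNemar test). At 6 h of TNFα 110 gained and 45 lost it, or 2.44 (adjusted p = 3.40e-07, exact McNemar test), with 10.9% gained and 6.46% lost over all vehicle RELA regions. At 30 min of TWEAK 111 gained and 41 lost it, or 2.71 (adjusted p = 2.64e-08, exact McNemar test), with 13.9% and 4.68% over all regions. At 6 h of TWEAK 86 gained and 70 lost it, or 1.23 (adjusted p = 0.271, exact McNemar test), with 8.41% and 8.18% over all regions, and the direction turned to 0.600 when H3K27ac regions were limited to a q of at most 0.001.

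The balance of gain and loss was then compared with that at the other vehicle RELA regions, and the difference passed the threshold at 6 h of TNFα. There the other regions gained 213 and lost 147 calls, or 1.45 gained per lost, and the odds ratio of members against them was 1.69 (exact test, adjusted p = 0.0210). The odds ratios were 0.890 at 30 min of TNFα (adjusted p = 0.657), 0.876 at 30 min of TWEAK (adjusted p = 0.632) and 1.30 at 6 h of TWEAK (adjusted p = 0.270), each by the same exact test and each not detectable. The treated comparisons share the vehicle list, so they are not independent of each other. FOSL1 regions that overlapped no RELA or RELB region gave 0.151, 0.929, 0.183 and 0.340 gained per lost in the order of the 4 treated lists, and those in tandem repeats gave 1.40, 1.26, 1.87 and 0.878.

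Most gained and lost calls lay in alpha satellite, which supplied 97 of the 111 gained and 36 of the 40 lost calls at 30 min of TNFα. Alpha satellite was also 77.3% of all members and 706 of the 909 members with a vehicle call. The CATTC members gained 5 and lost 1 at that time and gained 10 and lost 1 at 6 h of TNFα, but gained 5 and lost 5 at 30 min of TWEAK and gained 3 and lost 5 at 6 h of TWEAK. No telomere member and no mitochondrial match gained or lost a call in any treated list. Outside tandem repeats the 26 members gained 0 and lost 1 at 30 min of TNFα, gained 2 and lost 0 at 6 h, gained 3 and lost 1 at 30 min of TWEAK and gained 0 and lost 1 at 6 h. Among the 220 members without a vehicle call, 50.5% had one after TNFα for 30 min, against 27.6% of 1063 other regions, and of the 909 with a call 4.40% lost it, against 12.1% of 779. The order was the same in each treated list. Gains were 50.0% against 20.0% after TNFα for 6 h, and 50.5% against 28.5% and 39.1% against 15.4% after TWEAK. Losses in that order were 4.95% against 18.9%, 4.51% against 12.6% and 7.70% against 22.2%. These contrasts were not tested.

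**Figure D5:**
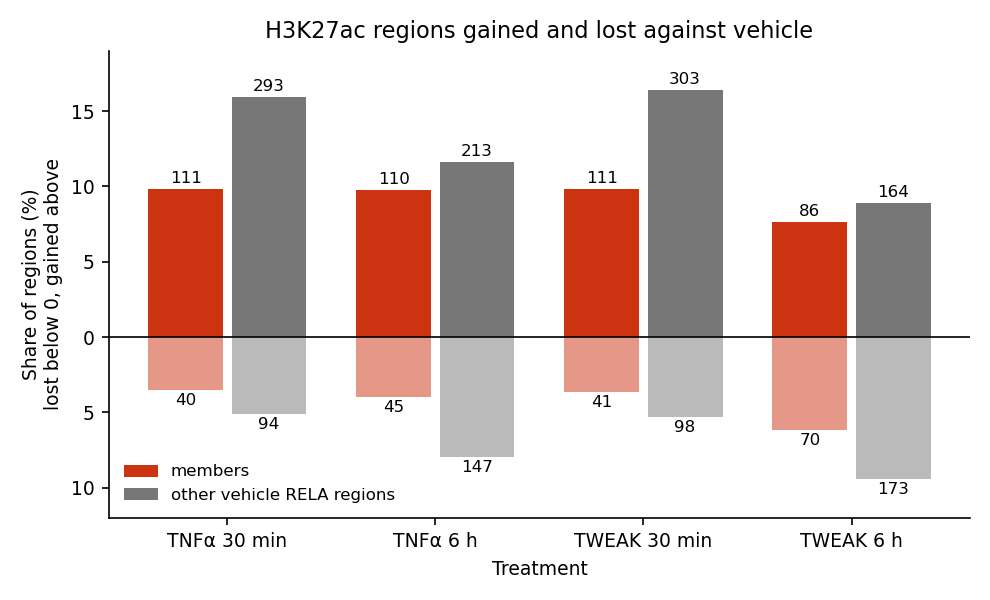
Share of regions (y axis, percent) that gained an H3K27ac call against vehicle (above 0) or lost it (below 0, lighter) in each treated list (x axis), for members and other vehicle RELA regions, with the number of regions at each bar. Gains exceed losses at the members in all 4 lists, with 86 and 70 at 6 h of TWEAK, where the difference was not detectable.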

How the data were processed

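ChIP-seq of L3.6pl cells was analysed from the lists the authors deposited, 1 per condition of pooled replicates. Reads were mapped to hg38, and the submitters' processing notes name Bowtie2 2.5.0, SAMtools 1.18, deepTools 3.3.2 and MACS2 (version not given in the sources used here). H3K27ac was called as broad peaks and the others as narrow peaks, with input as background. The deposited fold enrichment is a ratio, by the authors, of ChIP over input. The deposited −log10 q (used as a stricter limit), the deposited score and the 16 columns of deposited −log10 p-values are the authors' significance of a peak. The last 2 kinds were not used.

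The members, repeat types, gene list and tests were chosen with earlier results of these data known. Own code ran on Python with scipy 1.17.1, numpy 2.4.6 and pysam 0.24.0. Types were assigned in this order: mitochondrial match (at least 50% of the 25-base words of the 200 bp around the summit), telomere type (20 TTAGGG or more per 1000 bp, both strands), CATTC type (30 or more), then the period of the best self-match. On simulated repeats of short units, some were placed at a longer period by a multiple of the unit. An H3K27ac region counted when it came within 500 bp of a summit. Genes came from GENCODE 44. Regions named are the 3 strongest of each type by vehicle RELA fold enrichment and, outside tandem repeats, the 15 strongest. GA and CT runs were added after the sequences were seen. The depth per sample is unknown. The alternatives were other overlaps, limits of q and fold enrichment, windows, distances and repeat subsets.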

Additional observations from a re-analysis of the deposited data

Results flagged for a closer look

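Outside chromosomes 1 to 22, X and Y, on sequences the analysis above did not use, 90 of 210 vehicle RELA regions (42.9%) had a call in each of the 10 lists, against 38.0% on chromosomes 1 to 22 and X. They lay on 31 sequences, including 2 on the mitochondrial genome, and their median vehicle RELA fold enrichment was 7.45.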

How the results depend on the processing

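Of 80 alternatives, 72 gave a value and 67 of these kept their direction and side of the threshold, as did the 10 chosen after the data were seen. With a fold enrichment of at least 5 in all lists there were 734 members, and between 1075 and 1113 under the other 3 rules. Outside tandem repeats, mitochondrial matches included, the odds ratio for FOSL1 was 1.60 and that for H3K27ac in vehicle was 0.771. Within 5 Mb of a chromosome end in place of 1 Mb it was 0.929. With H3K27ac regions of q at most 0.001, gained per lost at 6 h of TWEAK was 0.600 (p = 3.81e-04, exact McNemar test). The cause was not tested in any of these. With a self-match limit of 0.5 the odds ratio for tandem repeats was 3.21, against 8.40. The other 8 alternatives, gained and lost calls outside tandem repeats, had under 10 changed members and were given no value. No paired analysis was possible because each condition has 1 list of pooled replicates. Without depth or replicate lists, the spread between replicates cannot be given.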
